A study of Homo sapiens with 2 samples.

Results

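The transcripts of 43 genes of cell adhesion and of the epithelial-mesenchymal programme were compared between a RUNX2 knockdown clone and a control clone of SKOV3, an established human ovarian adenocarcinoma cell line. The genes were chosen by name, as cadherins, protocadherins, catenins, desmosomal and tight junction components, nectins, transcription factors of epithelial-mesenchymal transition (EMT) and marker genes. This choice was made with earlier results of these data known. The genes were found on the arrays through the RefSeq accession of each probe. These 43 of 17240 named genes were represented by 66 of 41000 probes, and 24 of the genes measured in both hybridizations had a single usable probe.

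Both clones were grown as untreated adherent cultures in serum-containing RPMI medium and carried the lentiviral vector pLKO.1-puro under puromycin selection. In the clone cl-sh3 the vector encoded a short hairpin RNA against RUNX2, a transcription factor of the Runt family, while in the mock-transfected control clone it encoded a scrambled sequence. Cyanine-labelled cRNA of both clones was hybridized together on whole human genome Agilent arrays, with cl-sh3 in Cy5 in hybridization 1 and in Cy3 in hybridization 2. Each line was 1 clone with 1 hairpin, and cl-sh3 had been picked for this experiment because it proliferated, migrated and invaded less than another knockdown clone. The labels name no separate cultures for the hybridizations, which were run on 1 slide and are counted here as 1 replicate, so no test between the clones could be made and every value is given for both hybridizations.

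The targeted gene was checked first. The brightest RUNX2 probe had log2 ratios of cl-sh3 over control of -2.04 and -1.30 in hybridizations 1 and 2, while a dimmer one with that accession gave 0.17 and -0.13 and a probe of another RUNX2 transcript at -0.29 and -0.17. On these arrays the knockdown was thus seen with the brightest probe. Of the 45015 spots of an array, between 77.3% and 93.9% were called well above background per channel, and no spot was saturated. All 7 carcinoma and epithelial markers examined were detected in both clones. Probes for 4 fibroblast, 5 leukocyte and 4 endothelial markers were also called well above background, and none of them reached 1.5-fold in both hybridizations.

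Classical cadherins hold neighbouring cells together through calcium-dependent contacts of their extracellular domains, and their cytoplasmic tails bind catenins, which connect them to actin. Desmosomes use desmogleins and desmocollins in the same way to anchor keratin filaments, tight junctions seal the space between cells with claudins and occludin on a scaffold of ZO proteins, and nectins are immunoglobulin-like adhesion molecules that help to place adherens junctions. During EMT, factors of the SNAI, TWIST and ZEB families repress epithelial junction genes while cells gain mesenchymal genes such as vimentin, and carcinoma cell lines can hold genes of both states at once.

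Most of these genes were close to equal in both clones. None of the 41 genes with a value in each hybridization met the 2-fold criterion (a difference of 2-fold or more with the same direction in both), against 0.656% of 16153 named genes, 0.136% as higher and 0.52% as lower. The median log2 ratio of the 41 was 0.01, the same as the median of all named genes. At a lower threshold of 1.5-fold in both hybridizations, chosen after it was seen that no gene reached 2-fold, 3 genes were higher in cl-sh3 (CDH6, CTNNB1 and PCDH9) and 2 were lower (TJP1 and SNAI1). These 5 of 41 stand beside 4.21% of all named genes at the same threshold, 1.6% higher and 2.61% lower. The 41 genes were chosen with earlier results of these data known, so these shares cannot show an excess. PCDH9 was kept through its signal in cl-sh3 and drops out, leaving 4, when both RNAs must be well above background. With all kept probes of a gene averaged, CDH6, CTNNB1 and TJP1 fell just short of 1.5-fold in 1 hybridization. PCDH9 and SNAI1 have 1 kept probe each, so averaging could not change their values. As RNA of whole cultures was measured, a lower level in every cell and fewer cells with the transcript cannot be told apart.

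The sign of the ratio was the same in both hybridizations for 29 of the 41 genes, 16 of them higher and 13 lower in cl-sh3, and it was opposite for 12. Of all named genes 59.3% kept their sign, 30.9% as higher and 28.4% as lower. The median difference of a gene between the hybridizations was 0.21 on the log2 scale, beside 0.23 for all named genes, and the largest was 0.98, for VIM. A log2 ratio of about 0.21 in 1 hybridization was thus within the usual technical spread. That spread differed between genes, and the dye reversal shows it for each gene. Of the remaining 2 genes, DSC3, a desmosomal cadherin, was not kept, as neither clone was well above background in both hybridizations with either of its probes. SNAI2, a repressor of the Snail family, gave -0.24 (log2) in hybridization 1, and its spot in hybridization 2 carried an outlier flag.

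**Figure D1:**
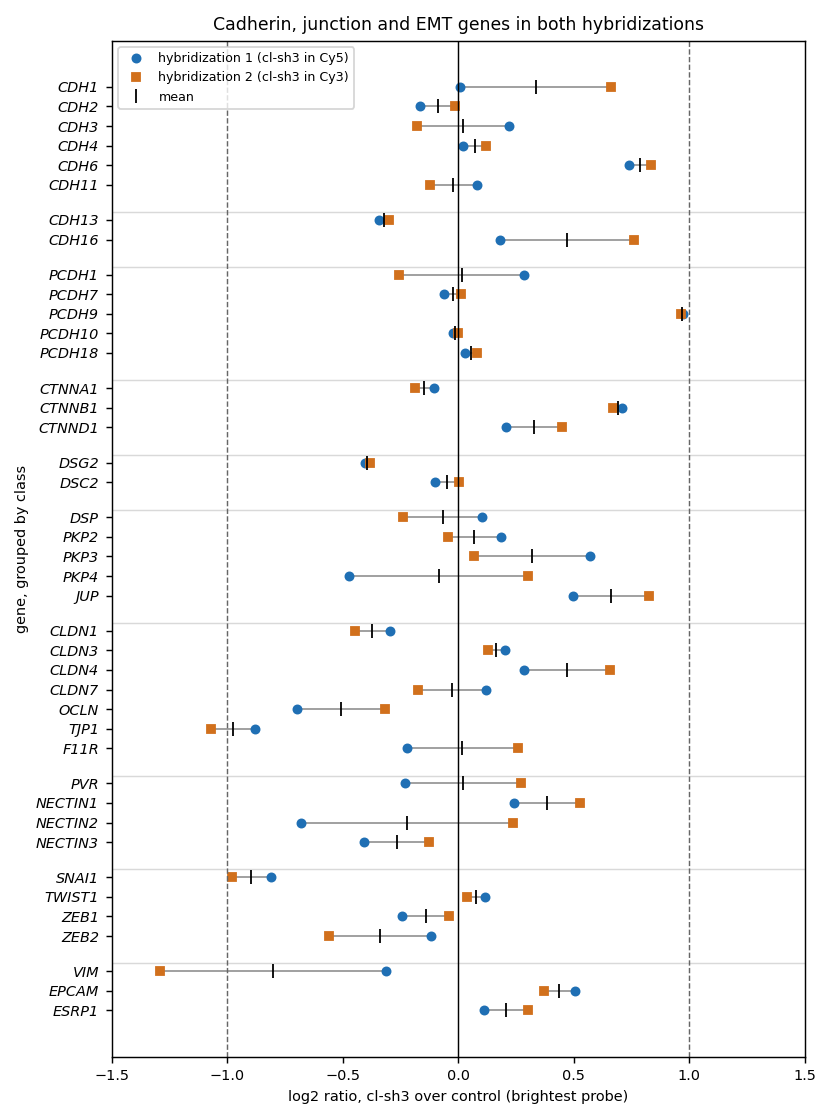
Log2 ratio of cl-sh3 over control (horizontal axis) of the brightest probe of each of the 41 genes measured in both hybridizations, with genes grouped by class between grey lines. Circles are hybridization 1, squares hybridization 2, black ticks their mean, and dashed lines 2-fold. PCDH9 and CDH6 lie farthest to the right and TJP1, SNAI1 and VIM farthest to the left, and no gene is past a dashed line with both points.

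**Figure D2:**
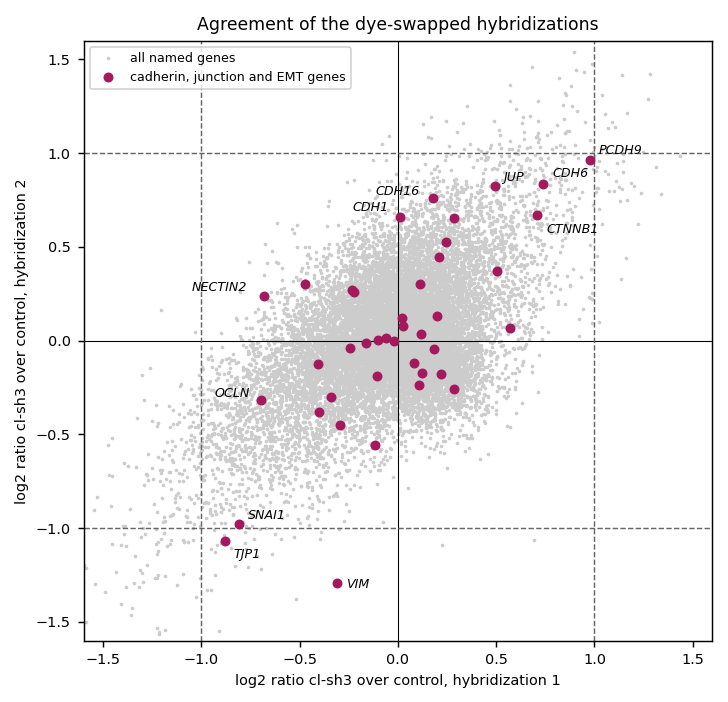
Log2 ratio of cl-sh3 over control in hybridization 1 (horizontal) against hybridization 2 (vertical), for all named genes in grey and for the 41 cadherin, junction and EMT genes in colour, with dashed lines at 2-fold. The axes stop at 1.6 in each direction. PCDH9, CDH6, CTNNB1, TJP1 and SNAI1 lie close to the diagonal, while CDH1, NECTIN2 and VIM lie away from it.

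Promoters of genes towards both ends of this order are shown where a sequence was matched, because RUNX factors and the EMT repressors bind short DNA motifs. RefSeq promoters (build GRCh38.p14) were matched for 26 of the 43 genes, with the most upstream start of a gene and the 250 bases before it. CDH1, CDH6 and SNAI1 were among the 17 genes without a match. The RUNX core TGTGGT or its complement ACCACA was in 1 of the 26, against 11.05% of 27305 promoters of all genes. The E-box CACCTG or its complement CAGGTG, the motif bound by SNAI and ZEB proteins, was in 9 of the 26 (34.6%), against 17.5% of all promoters. These were CDH4, DSC2, DSG2, DSP, OCLN, PCDH1, PVR, TJP1 and ZEB1, and VIM held the RUNX core. Among the matched genes, TJP1, VIM and OCLN had the lowest mean ratios and PCDH9, CTNNB1 and JUP the highest. Their promoters are printed 5′ to 3′ on the strand of the gene, ending at the base before the start, with the RUNX core and the E-box in capitals. A match describes letters and is not a measured site, and no 2 matches overlap in these windows.
TJP1, chr15:29969050-29969299, minus strand: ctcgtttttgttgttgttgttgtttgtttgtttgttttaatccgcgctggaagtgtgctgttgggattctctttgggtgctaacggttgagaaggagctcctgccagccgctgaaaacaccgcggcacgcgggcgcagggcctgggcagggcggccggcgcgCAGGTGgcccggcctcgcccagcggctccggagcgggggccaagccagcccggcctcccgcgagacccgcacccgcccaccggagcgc
VIM, chr10:17227991-17228240, plus strand: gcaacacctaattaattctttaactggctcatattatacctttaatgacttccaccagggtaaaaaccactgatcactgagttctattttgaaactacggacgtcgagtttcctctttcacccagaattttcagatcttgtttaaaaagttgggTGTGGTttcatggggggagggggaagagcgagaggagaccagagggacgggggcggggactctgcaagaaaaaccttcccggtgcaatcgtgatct
OCLN, chr5:69492297-69492546, plus strand: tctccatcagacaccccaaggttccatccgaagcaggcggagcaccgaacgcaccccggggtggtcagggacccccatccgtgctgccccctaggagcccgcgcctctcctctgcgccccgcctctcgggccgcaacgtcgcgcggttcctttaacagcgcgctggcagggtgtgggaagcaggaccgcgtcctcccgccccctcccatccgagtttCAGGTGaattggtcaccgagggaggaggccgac
JUP, chr17:41786712-41786961, minus strand: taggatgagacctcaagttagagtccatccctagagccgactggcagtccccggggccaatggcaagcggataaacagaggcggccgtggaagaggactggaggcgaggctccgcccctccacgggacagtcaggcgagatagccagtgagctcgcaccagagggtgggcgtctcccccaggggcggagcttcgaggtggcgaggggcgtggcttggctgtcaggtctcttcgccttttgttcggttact
CTNNB1, chr3:41199255-41199504, plus strand: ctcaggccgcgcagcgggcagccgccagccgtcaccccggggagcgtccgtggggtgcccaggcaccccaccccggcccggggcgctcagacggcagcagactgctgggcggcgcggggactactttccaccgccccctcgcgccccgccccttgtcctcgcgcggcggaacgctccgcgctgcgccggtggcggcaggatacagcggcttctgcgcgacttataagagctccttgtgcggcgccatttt
PCDH9, chr13:67230337-67230586, minus strand: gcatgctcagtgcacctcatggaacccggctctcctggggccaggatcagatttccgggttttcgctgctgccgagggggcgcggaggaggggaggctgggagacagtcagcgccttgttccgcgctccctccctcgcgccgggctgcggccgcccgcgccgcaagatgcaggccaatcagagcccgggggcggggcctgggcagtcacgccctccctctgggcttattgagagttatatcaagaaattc
The E-box began 88 bases before the start in TJP1 and 33 bases before it in OCLN, and the RUNX core 96 bases before the start in VIM. The windows of JUP, CTNNB1 and PCDH9 held neither motif. The other matched genes with an E-box had mean log2 ratios from -0.39 (DSG2) to 0.07 (CDH4).

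Among the classical cadherins, the highest ratio was that of CDH6, the type II cadherin K-cadherin that is known from kidney and ovarian carcinoma. Its brightest probe had normalized log2 intensities of 12.27 and 12.29 in the control and of 13.01 and 13.12 in cl-sh3 in hybridizations 1 and 2. Both cl-sh3 values were above both control values, and the log2 ratios were 0.74 and 0.83, a mean of 1.72-fold. The other CDH6 probe was higher by less, with log2 ratios of 0.55 and 0.30, and the difference held its direction with each of the 2 probes.

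CDH1 encodes E-cadherin, the main cadherin of epithelial adherens junctions, and was higher in 1 hybridization only. The level of its probe was 9.90 in the control and 9.91 in cl-sh3 in hybridization 1, and 9.55 and 10.21 in hybridization 2. The log2 ratios were 0.01 and 0.66. The probe was printed in 10 spots, which allows the error within an array to be read: the spots had an SD of 0.096 in hybridization 1 (n = 9 spots) and 0.112 in hybridization 2 (n = 10 spots). Their ratios ran from -0.10 to 0.18 and from 0.40 to 0.79, so the hybridizations did not overlap and differed by more than the spots within either of them. For the 256 probes of the arrays with 10 spots, the median SD was 0.117 and 0.114.

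CDH2, the N-cadherin of mesenchymal and neural cells, was near 0 with log2 ratios of -0.16 and -0.01. P-cadherin, encoded by CDH3, was at 0.22 and -0.18, the retinal cadherin gene CDH4 at 0.02 and 0.12, and CDH11, a cadherin of mesenchymal cells and osteoblasts, at 0.08 and -0.12. The signs of CDH3 and CDH11 were opposite between the hybridizations. The 6 classical and type II cadherins had a median of 0.05. Neither E- nor N-cadherin reached 1.5-fold in both hybridizations.

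Of the atypical cadherins, the membrane-anchored T-cadherin gene CDH13, which lacks a cytoplasmic tail, was lower in both hybridizations, with control levels of 11.47 and 11.36, cl-sh3 levels of 11.12 and 11.06 and log2 ratios of -0.34 and -0.30. CDH16, the kidney-specific cadherin, had control levels of 15.18 and 14.78 and cl-sh3 levels of 15.36 and 15.54. Its log2 ratios were 0.18 and 0.76. The first was smaller than the median difference of a gene between hybridizations and the second larger.

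Protocadherins form weaker and more selective contacts than classical cadherins and lack their catenin-binding tail. PCDH9 had control levels of 7.01 and 7.25 and cl-sh3 levels of 7.99 and 8.21, with log2 ratios of 0.97 and 0.96. The ratios were almost equal, but the probe was dim, with the control well above background in 1 of the 2 hybridizations. Its ratio depended on the treatment of the background, and was 1.39 and 1.30 with a normexp offset of 0, 1.39 and 2.21 with the scanner software's ratios, and 0.73 and 0.38 without background correction. The probe of another PCDH9 transcript was at 0.36 and 0.88 and was not kept, since it was well above background in cl-sh3 in 1 hybridization and in the control in none.

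The brightest probes of the other 4 protocadherins were closer to 0. PCDH7 was at -0.06 and 0.01, the delta-protocadherin PCDH10 at -0.02 and 0.00, and PCDH18 at 0.03 and 0.08. Dimmer probes were below 0 in both hybridizations, at -0.31 and -0.19 for PCDH7 and at -0.09 and -0.21 for PCDH10. PCDH1 had opposite signs, 0.29 and -0.26. Of the 10 measured genes nearest to PCDH9 on chromosome 13, 4 were higher and 4 lower in both hybridizations, with a median log2 ratio of 0.00 and means from -0.31 for PIBF1 to 0.65. The highest of them was PCDH20, another protocadherin, at 0.65 in each hybridization.

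The catenins did not share a direction. CTNNB1 encodes β-catenin, which binds the cadherin tail and also carries the Wnt signal to the nucleus. Its brightest probe had control levels of 12.63 and 12.48 and cl-sh3 levels of 13.34 and 13.15. The log2 ratios were 0.71 and 0.67, or 1.61-fold for the mean. Its spots ranged from 0.54 to 0.95 in hybridization 1 (SD 0.148, n = 10 spots) and from 0.49 to 0.81 in hybridization 2 (SD 0.115, n = 8 spots). Every one of these spots was above 0, and a dimmer CTNNB1 probe was at 0.58 and 0.46.

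**Figure D3:**
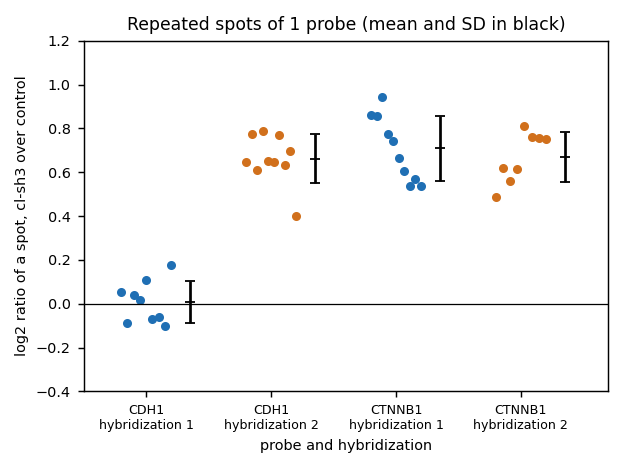
Log2 ratio of cl-sh3 over control of single spots of the CDH1 and the CTNNB1 probe (vertical axis) in each hybridization, with their mean and SD in black. The CDH1 spots lie around 0 in hybridization 1 and between 0.40 and 0.79 in hybridization 2, while the CTNNB1 spots overlap between hybridizations.

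CTNNA1, the α-catenin gene that links β-catenin to actin, was slightly lower with log2 ratios of -0.11 and -0.19, and a dimmer probe gave -0.24 and -0.22. CTNND1 encodes p120-catenin, which keeps cadherins at the membrane. Its brightest probe was at 0.21 and 0.45, but its other probes gave -0.63 and 0.13, -0.65 and 0.16, and -0.11 and 0.47. Some of these carry the accessions of different CTNND1 transcripts, and the direction of the gene cannot be read from them.

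In desmosomes, the plaque protein gene JUP (plakoglobin, a relative of β-catenin that is shared with adherens junctions) had the highest ratio. JUP levels were 11.52 and 11.36 in the control and 12.01 and 12.18 in cl-sh3. The log2 ratios were 0.50 and 0.82, a mean of 1.58-fold, with both cl-sh3 values above both control values. By contrast, DSG2, the desmoglein of simple epithelia, was lower, with control levels of 10.58 and 10.33, cl-sh3 levels of 10.18 and 9.95 and log2 ratios of -0.40 and -0.38.

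No measured desmosomal gene, JUP and DSG2 included, reached 1.5-fold in both hybridizations, and the remaining ones stayed under it in each. The desmocollin gene DSC2 was at -0.10 and 0.00 and desmoplakin, the DSP product that binds keratin filaments, at 0.10 and -0.24. Plakophilins stabilise the plaque. Among them PKP2 was at 0.18 and -0.05, PKP3 at 0.57 and 0.07 and PKP4 at -0.47 and 0.30. The signs of DSP, PKP2 and PKP4 were opposite between the hybridizations.

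The tight junction genes fell on both sides of 0. TJP1 encodes the scaffold ZO-1, which ties claudins and occludin to actin, and was the gene with the lowest mean ratio of the 41. Its levels were 13.04 and 12.94 in the control and 12.16 and 11.87 in cl-sh3. The log2 ratios were -0.88 and -1.07, a mean of 1.97-fold lower. The cl-sh3 values were below the control values without overlap. A dimmer probe of the same accession gave -0.27 and -0.30, so that both probes were lower but by unequal amounts.

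OCLN, the gene of the membrane protein occludin, was also lower with both of its probes. The brightest had control levels of 10.17 and 10.25 and cl-sh3 levels of 9.47 and 9.93. Its log2 ratios were -0.70 and -0.32, and those of the dimmer probe -0.87 and -0.55. CLDN1, a barrier-forming claudin, was lower as well, with control levels of 12.72 and 12.91, cl-sh3 levels of 12.42 and 12.46 and log2 ratios of -0.30 and -0.45. The other CLDN1 probe gave -0.47 and -0.48. For both genes each probe was below 0 in each hybridization.

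CLDN3 and CLDN4, claudins that are abundant in ovarian carcinoma, were above 0 in both hybridizations. CLDN4 had control levels of 7.84 and 7.62, cl-sh3 levels of 8.13 and 8.28 and log2 ratios of 0.29 and 0.66. The CLDN4 probe was dim, and its mean was 0.41 without background correction and 0.76 with the scanner software's ratios. CLDN3 was at 0.20 and 0.13 with its brightest probe, while its dimmer probe was at -0.17 and 0.65. The claudin gene CLDN7 was at 0.12 and -0.17, and F11R, the gene of the junctional adhesion molecule JAM-A, at -0.22 and 0.26. The signs of CLDN7 and F11R were opposite between the hybridizations, and a dimmer F11R probe gave 0.14 and 0.82.

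Of the nectin family, NECTIN1 was higher in both hybridizations and NECTIN3 lower. NECTIN1 had log2 ratios of 0.24 and 0.53, and a dimmer probe of another transcript gave 0.25 and 0.11. NECTIN3 had control levels of 12.04 and 11.87, cl-sh3 levels of 11.63 and 11.74 and log2 ratios of -0.41 and -0.13. NECTIN2 had opposite signs, -0.68 and 0.24, while a dimmer probe of another transcript was at 0.24 and 0.19.

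PVR, the nectin-like poliovirus receptor, depended on the probe more than any other of these genes. Its brightest probe was at -0.23 and 0.27, a dimmer one at 0.73 and 1.11 and the third one at 0.30 and -0.27, although all carry the same accession. The probe at 0.73 and 1.11 had the control well above background in 1 of the 2 hybridizations. Of the 17 genes with several probes measured in both hybridizations, PVR had the widest range of mean log2 ratios, 0.90. The median range was 0.22. The probes of 14 of the 17 agreed in the sign of the mean, and CTNND1, NECTIN2 and TWIST1 did not. Some of the agreeing means were close to 0 and came from hybridizations of opposite sign, as for F11R, PCDH1, PCDH7 and PVR.

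**Figure D4:**
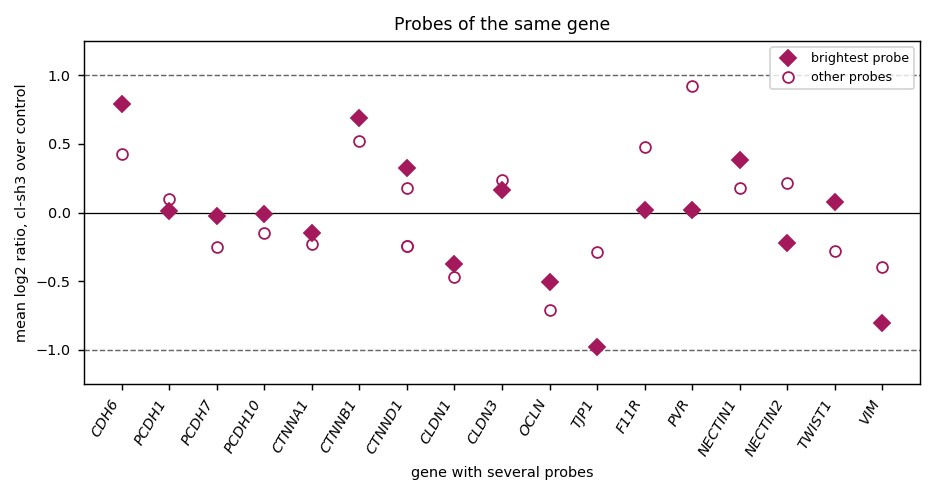
Mean log2 ratio of cl-sh3 over control of both hybridizations (vertical axis) for each probe of the 17 genes with several probes. Filled diamonds are the brightest probe, open circles the others, and dashed lines 2-fold. The PVR and TJP1 probes lie far apart, and those of CLDN1, OCLN, CDH6 and CTNNB1 lie on the same side of 0.

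Of the EMT transcription factors, SNAI1 was lower in cl-sh3. SNAI1 encodes Snail, a repressor of the E-cadherin gene. Its single probe had levels of 10.42 and 10.43 in the control and of 9.61 and 9.45 in cl-sh3. Both cl-sh3 values were below both control values, and the log2 ratios were -0.81 and -0.98, a mean of 1.86-fold lower. Under the alternative processings the mean ranged from -0.94 to -0.84.

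The ZEB repressors of epithelial genes were below 0 to a smaller extent. ZEB2 had levels of 10.11 and 9.89 in the control and of 9.99 and 9.33 in cl-sh3, which gave ratios of -0.12 and -0.56 (log2). ZEB1 was at -0.24 and -0.04. TWIST1, a helix-loop-helix factor of mesoderm, was at 0.12 and 0.04 with its brightest probe and at -0.30 and -0.26 with a dimmer probe, so that its probes had opposite signs. The 4 measured factors had a median of -0.24.

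VIM encodes vimentin, the intermediate filament of mesenchymal cells. Its brightest probe had levels of 18.09 and 18.38 in the control and of 17.78 and 17.09 in cl-sh3. The log2 ratios were -0.31 and -1.29, and those of the other probe 0.08 and -0.87. The size of the difference thus depended on the hybridization with both probes, and with median centring in place of loess the brightest probe was at 0.30 in hybridization 1 and at -1.34 in hybridization 2.

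Of the epithelial markers, EPCAM, a surface adhesion molecule of carcinoma cells, had control levels of 10.79 and 10.76 and cl-sh3 levels of 11.29 and 11.13. The log2 ratios were 0.50 and 0.37, with both cl-sh3 values above both control values. ESRP1, an epithelial splicing regulator, was at 0.11 and 0.30.

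**Figure D5:**
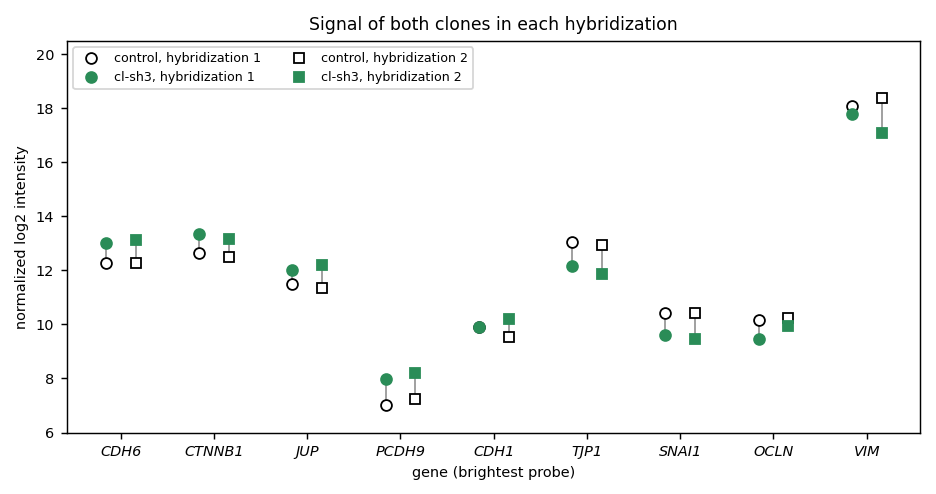
Normalized log2 intensity (vertical axis) of the brightest probe of 9 genes in the control (open) and in cl-sh3 (filled), with circles for hybridization 1 and squares for hybridization 2. For CDH6, CTNNB1, JUP and PCDH9 both filled symbols lie above both open ones and for TJP1, SNAI1, OCLN and VIM below them, while the CDH1 symbols coincide in hybridization 1. Levels of different genes come from different probes and are not comparable with each other.

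Set side by side, 9 genes of the epithelial side (CDH1, EPCAM, ESRP1, CLDN3, CLDN4, CLDN7, OCLN, DSP and PKP3) had a median log2 ratio of 0.21. On this side 6 genes were above 0 in both hybridizations, with CDH1 at only 0.01 in hybridization 1, while OCLN was lower in both and CLDN7 and DSP had opposite signs. The list leaves out TJP1, CLDN1 and DSG2, which were lower in both hybridizations, and JUP, which was higher. With all desmosomal and tight junction genes added (17 measured), a choice made after these values were seen, the median was 0.02, with 7 genes higher and 4 lower in both hybridizations. The mesenchymal side (CDH2, CDH11, VIM, SNAI1, TWIST1, ZEB1 and ZEB2, with SNAI2 measured once) had a median of -0.14. Among its 7 measured genes, 5 were lower in both hybridizations, TWIST1 was higher and CDH11 had opposite signs. Of all named genes 30.9% were higher and 28.4% lower in both. In hybridization 2, CDH2 was at only -0.01 and ZEB1 at -0.04, and the sign of the CDH2 mean changed with the processing. VIM was lower in both with its brightest probe only, as its other probe was at 0.08 in hybridization 1. In single hybridizations the medians were 0.12 and 0.13 for the epithelial side and -0.16 and -0.12 for the mesenchymal side. On the epithelial side no gene reached 1.5-fold in both hybridizations, and on the mesenchymal side SNAI1 did.

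Markers of the carcinoma cell itself were mostly above 0. Of 7 such markers, 5 were higher in both hybridizations, the keratin genes KRT7 (0.49 and 1.17), KRT8 (0.32 and 0.42), KRT18 (0.54 and 0.44) and KRT19 (0.50 and 0.86) and the mucin gene MUC1 (0.50 and 0.74). The receptor gene ERBB2 was lower, at -0.86 and -0.45, and PAX8 had opposite signs, 0.01 and -0.15. Of all named genes 30.9% were higher and 28.4% lower in both. The median of the 7 was 0.49. With its brightest probe none of the 7 reached 1.5-fold in both hybridizations, while dimmer KRT18 probes at 0.60 and 0.67 and at 0.60 and 0.74 did. Their part in the ratios of the junction genes was not tested.

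Other genes of the same junctions and programme were examined through lists chosen for their function. Of 174 listed genes 150 were on the arrays and 137 were measured in both hybridizations, with a median log2 ratio of 0.05. None of the 137 met the 2-fold criterion. In both, 58 were higher (42.3%, beside 30.9% of all named genes) and 24 lower (17.5%, beside 28.4%), while the rest had opposite signs. At 1.5-fold, 5 of the 137 were higher and none was lower (3.65%, beside 4.21% of all named genes, 1.6% higher and 2.61% lower), and these 5 are named after their values were seen. They are CDH24, a type II cadherin (0.85 and 1.11), PCDH20 (0.65 and 0.65), the actin-binding ACTN1 (0.73 and 0.59), the epithelial transcription factor gene ELF3 (0.84 and 0.96) and S100A4 (1.13 and 0.74), a calcium-binding protein gene that is known as a mesenchymal and metastasis marker.

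By list, the 11 measured other classical and type II cadherins had a median of 0.11, with 5 higher and none lower in both hybridizations. For the 15 other protocadherins and large cadherins the median was 0.10, with 9 higher and 1 lower, and for the 34 clustered protocadherins it was 0.06, with 15 higher and 4 lower. The 15 other adherens junction genes had a median of 0.02, with 7 higher and 3 lower, and the 6 other desmosomal genes 0.11, with 3 higher and none lower. Among the 31 other tight junction genes, 8 were higher and 7 lower around a median of 0.03. The 25 other EMT regulators and effectors had a median of 0.01, with 11 higher and 9 lower. The clustered protocadherins are near-identical in part, and signal may be shared between them on an array.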

How the data were processed

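Per the labels, each hybridization compared cl-sh3 with the control clone. The authors deposited the intensity of each spot (median pixel signal and median local background) and the log10 ratio (Cy5 over Cy3) that the scanner software computed, and a table of log10 ratios that equals it within 0.00245 and 0.00500. Per the file headers these were read with Agilent Feature Extraction 10.5.1.1, while the submitters' processing notes give 8.5.1.1. The deposited intensities are not normalized. From them, normexp (offset 50) in limma 3.58.1 (R 4.3.3) removed the background, which draws ratios of dim probes towards 0. Control spots (1639) were removed, 153 and 144 spots with outlier flags were dropped, and loess was applied within arrays. The repeated spots of each probe gave 1 mean, and the sign of hybridization 2 was reversed so that all ratios are log2 of cl-sh3 over control. Levels are log2 intensities after loess and Aquantile. Probes had to have 1 or both RNAs well above background in both hybridizations (at least 50% of the spots), which 36065 of 41000 were, and 62 of the 66 probes described here. A gene was represented by its brightest kept probe. Calls needed 2-fold the same way in both hybridizations, the study's rule.

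Gene symbols came from a RefSeq table of GRCh38.p14 (18024 of 19228 RefSeq accessions), except that 1 RUNX2 accession was named through the study's gene list, from which no value was taken. No coordinates of probes are given, since the arrays were annotated on another build. All 43 genes were named, with other probes where these were informative. The members and gene lists were chosen with earlier results of these data known. The processing was tested on simulated data. The alternatives changed the background (offset 0 or none), the normalization (median centring, or Aquantile after loess), the flagged spots (kept), the detection filter (none, or both RNAs), the source of ratios (the scanner software, or the deposited table), the hybridizations (1 of them, or 2-fold on their mean), the probes (averaged per gene) the fold (1.5, also with probes averaged) and the epithelial list. The number of arrays limits the precision. Computations outside R used Python 3.11.15, numpy 2.4.6, pandas 2.3.3 and matplotlib 3.10.9.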

Additional observations from a re-analysis of the deposited data

How the results depend on the processing

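No paired analysis was possible because both hybridizations measured the same pair of RNAs, which makes 1 replicate with no test. None of the 41 genes reached 2-fold in the main setting, while 1 of them (PCDH9) did with offset 0, with the scanner software's ratios and with the deposited table. With single hybridizations the number was 0 to 2 (TJP1 and VIM in hybridization 2 alone), and it was 5 at 1.5-fold, or 2 with all kept probes averaged, where CDH6, CTNNB1 and TJP1 were lost. For the other junction and EMT genes the number was 0, with 1 in each single hybridization (CDH24 in hybridization 2, S100A4 in hybridization 1) and 5 at 1.5-fold, also with probes averaged. Over all probes, 186 passed 2-fold, against 356 with the software's ratios, 354 with the deposited table, 343 by the mean of both hybridizations, 415 to 594 in single hybridizations and 1324 at 1.5-fold. The lower share of them was 76.3%, and 61.7% with median centring, 85.2% in hybridization 1 alone (88 higher, 506 lower) and 47.2% in hybridization 2 alone (219 higher, 196 lower). Median centring moved the median of all probes to 0.03. The median of the 41 genes was 0.0143, and 0.0182 with offset 0, 0.0517 with median centring, 0.0011 without a filter, -0.0121 with both RNAs required, 0.0020 with the software's ratios and with the deposited table, and -0.0037 with all kept probes averaged per gene. The epithelial median of 0.21 was 0.25 with offset 0, 0.22 with median centring, 0.18 with the software's ratios and the deposited table, 0.12 to 0.13 in single hybridizations, and 0.0174 with all desmosomal and tight junction genes added. The mesenchymal median of -0.14 was -0.32 with the software's ratios and the deposited table. It was -0.12 in hybridization 2 alone and -0.20 in hybridization 1 alone, where SNAI2 is counted too (-0.16 without it). Both medians kept their signs in the settings named here, and the wider epithelial list was examined in the main setting only. The RUNX2 mean of -1.67 was -0.63 with all its probes averaged, since 2 dim probes differ. The cause of these differences was not tested. Of the 29 genes with 1 sign in both hybridizations, 24 kept the sign of their mean under each processing that gave a value (9 for CDH4 and PCDH9, 10 for the others), and CDH2, CTNNA1, PCDH10, PCDH18 and TWIST1 did not. Not all of these processings could change a sign. Aquantile and the detection filters left the ratios of these genes as they were, and the deposited table nearly equals the software's ratios. PCDH9 was no longer 1.5-fold higher in both hybridizations without background correction and was left out when both RNAs were required, and JUP was added with the software's ratios. The means of CDH6, CTNNB1 and TJP1 kept their signs but moved to 0.61, 0.61 and -0.63 with probes averaged. With the flagged SNAI2 spot kept, its log2 ratio in hybridization 2 was 1.85 beside -0.24 in hybridization 1.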

Other observations

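The list of other EMT regulators and effectors had 11 genes higher and 9 lower in both hybridizations. The genes named here were chosen after their values were seen, and none of them reached 1.5-fold in both. The matrix genes FN1, encoding fibronectin, and SPARC had log2 ratios of -0.30 and -0.42 and of -0.31 and -0.83. The Krüppel-like factor genes KLF8 and KLF4 were at -0.85 and -0.29 and at -0.69 and -0.47, and the splicing factor gene RBFOX2, which favours mesenchymal isoforms, at -0.69 and -0.28. The epithelial Ets factor gene EHF was higher, at 0.37 and 0.53, and so were the forkhead genes FOXC1 and FOXC2, inducers of EMT, at 0.64 and 0.29 and at 0.48 and 0.37. Thus inducers of EMT were found on both sides of 0.

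Beyond the claudins described above, CLDN10 was lower at -0.53 and -0.55. JAM3, another junctional adhesion molecule gene, was higher at 0.53 and 0.56, and so was the polarity gene PARD6B at 0.37 and 0.69. Among genes that couple junctions to actin, VCL (vinculin) was at 0.46 and 0.24, CDC42, a small GTPase gene, at 0.72 and 0.33, and CTNNAL1, a relative of α-catenin, at -0.86 and -0.39. These genes too were picked with their values known.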
